A study of Mus musculus with 4 samples.

Results

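The AMPA and NMDA receptor subunits are the pore-forming proteins of the main fast excitatory receptors of the spinal cord. Their genes were taken here as Gria1, Gria2, Gria3 and Gria4 for the AMPA receptor and Grin1, Grin2a, Grin2b, Grin2c, Grin2d and Grin3a for the NMDA receptor, and every row of the deposited peak tables that carries one of these gene names was used. All 10 genes had at least 1 row, of 13558 gene names in the tables. They accounted for 41 of the 33556 N6-methyladenosine (m6A) peaks of the CCI list, 39 of the 34406 peaks of the sham list and 8 of the 4812 rows of the differential table.

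C57BL/6J mice, which were 6 to 8 weeks old, were operated on at the sciatic nerve, and the spinal cord was taken on day 7. In the CCI group (chronic constriction injury, a model of neuropathic pain) the nerve was loosely tied, and in the sham group the nerve was exposed without a ligature. The paper's methods describe male mice, and the number of mice behind a library is not given in the sources used here. m6A was measured by MeRIP-seq, in which poly(A) RNA is fragmented, fragments with m6A are pulled down with an antibody (IP), and the IP reads are set against those of the untreated input. Each group had 1 IP library and 1 input library, so no difference between CCI and sham has a replicate behind it and none was tested. The tables give no read counts, so the depth is unknown and no interval can be put on a fold enrichment. Whole tissue was extracted, so fewer cells of a type and less RNA per cell cannot be told apart, and a peak that is missing from a list cannot be told apart from a transcript that was too scarce for a peak to be called. As a check of the labelled tissue, all 4 neuronal, all 4 astrocyte, all 3 oligodendrocyte and all 3 microglial marker genes examined carried peaks in both lists. Of 3 Hox genes that mark the position along the cord, Hoxc8 and Hoxa7 carried peaks in both lists and Hoxc9 carried none.

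AMPA receptors are tetramers that carry most of the fast current at glutamatergic synapses, including those by which nociceptive afferents drive dorsal horn neurons. NMDA receptors need the subunit encoded by Grin1 and pair it with subunits of the Grin2 or Grin3 type, which set the kinetics, the magnesium block and the calcium permeability of the channel. m6A is written on nascent mRNA by the Mettl3 and Mettl14 methyltransferase complex, mostly within the consensus known as DRACH, is concentrated around stop codons and in 3′-UTRs, and is read by proteins that alter the translation and decay of the transcript.

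Sequence was at hand for a start site of 5 of the 10 genes, as RefSeq promoter windows of build GRCm38.p6 that run from 250 bases before to 50 bases after 1 start site per gene. The site of the Gria2 window is the gene start of the peak tables. The site of the Grin2d window lies 3748 bases inside the gene start of the peak tables. The last base of the Grin2d stretch printed here lies 124 bases upstream of that site, within the gene. Peaks of both lists reached into 2 of these windows. The stretches that hold a DRACH match within those peaks are given here because they are the part of the enriched 5′ regions that can be read here, with GGACT and TGACT, the forms of the consensus searched for, in capitals. The Gria2 stretch is chr3:80802788-80802817 on the minus strand, and the Grin2d stretch is chr7:45866805-45866834 on the minus strand.
Gria2: cgGGACTgcctgcccctctctgTGACTttc
Grin2d: cccctctcatccTGACTctgcatctccctc
The Gria2 stretch lay in the 50 bases of the window that its 5′-UTR peak covered, which held 1 GGACT and 1 TGACT on the transcript strand and neither on the other strand. The Grin2d peak covered all 300 bases of its window, which held 1 TGACT and no GGACT on either strand. Matches of this kind are common: of the 32851 RefSeq windows, 26.1% held GGACT and 25.4% held TGACT on the transcript strand, and 45.5% and 44.2% held them on either strand. Within the last 50 bases of the windows alone, the shares on the transcript strand were 5.76% and 4.62%.

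The subunit genes carried more peaks than a usual gene, with a median of 4.5 peaks per gene in CCI and 3.5 in sham, against 2 and 2 over all gene names with peaks. Grin2b held the most in CCI, with 8 peaks against 6 in sham, and Gria1 the most in sham, with 7 peaks against 5 in CCI. Grin1 held 6 in each list, Grin3a 6 and 5, Gria3 5 and 4, Grin2d 4 and 1, Gria2 2 and 2, Gria4 2 and 3, Grin2a 2 and 2, and Grin2c 1 and 3, in CCI and sham respectively. The counts of a gene thus differed by at most 3 between the lists.

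**Figure D1:**
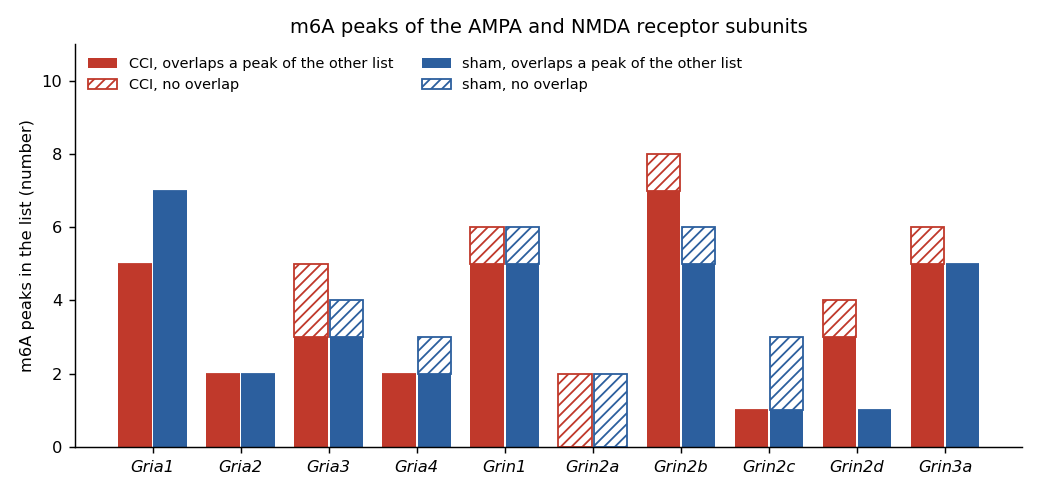
Number of m6A peaks of each subunit gene in the CCI list (red) and in the sham list (blue). Filled bars are peaks that overlap a peak of the other list and hatched bars are peaks that do not. Grin2a has hatched bars alone, and Gria1 and Gria2 have filled bars alone.

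A peak was taken as shared when at least 1 exonic base of it lay in a peak of the other list. Of the 41 CCI peaks 33 were shared (80.5%, 95% Wilson interval 66.0 to 89.8%), and of the 39 sham peaks 31 were (79.5%, 64.5 to 89.2%). These intervals cover counting error only, and peaks of 1 gene share its reads. The remaining 8 CCI peaks make up 19.5% (10.2 to 34.0%) beside 12.3% over all CCI peaks, and the remaining 8 sham peaks 20.5% (10.8 to 35.5%) beside 16.1% over all sham peaks. Both background shares lie within the intervals. The intervals are wide and take peaks of 1 gene as independent, so they cannot show whether the subunit genes differ from the rest of the lists. The rule also counts partners listed under another gene name, as for some CCI peaks of Grin2b and Grin2d. With partners of the same name, 73.2% of the CCI peaks and 79.5% of the sham peaks were shared. That alternative was added after seeing the data, and its share over all peaks is not given here. All 16 peaks without any partner were weak. The false discovery rate of IP against input, as log10, had a median of -4.49 in the 8 CCI peaks and -3.15 in the 8 sham peaks, against -28.8 and -30.5 in the shared peaks of the subunits. None of the 16 had a false discovery rate below 1e-10, whereas 25 of the 33 shared CCI peaks and 22 of the 31 shared sham peaks did. Over all peaks found in 1 list alone, 93.6% in CCI and 94.1% in sham did not reach that limit either.

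For peaks found in both lists, the fold enrichment of IP over input in CCI was divided by that in sham, with each peak paired to its best partner in the other list. The 29 pairs of the subunit genes had a median log2 ratio of 0.24 and ran from -0.97 to 1.74 (middle 50% from -0.27 to 0.54), with 16 pairs higher in CCI and 13 lower. Over all 27380 pairs the median was 0.03 (middle 50% from -0.37 to 0.43), and 51.8% were higher in CCI. Only 1 subunit pair reached a log2 ratio of 1, beside 8.59% of all pairs, and no subunit pair reached -1, beside 7.25% of all pairs. At a log2 ratio of 0.5 in either direction the share was 37.9% for the subunits and 41.5% for all pairs. The pairs in which both peaks had a false discovery rate below 1e-10 numbered 21, with a median of 0.19 and a range from -0.97 to 0.99, and none reached 1. Of all 17441 pairs of that strength, 1193 reached 1 and 930 reached -1. The middle 50% of the subunit pairs was therefore about as wide as that of pairs in general. A smaller share of them passed a log2 ratio of 1 in either direction, which was not tested.

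**Figure D2:**
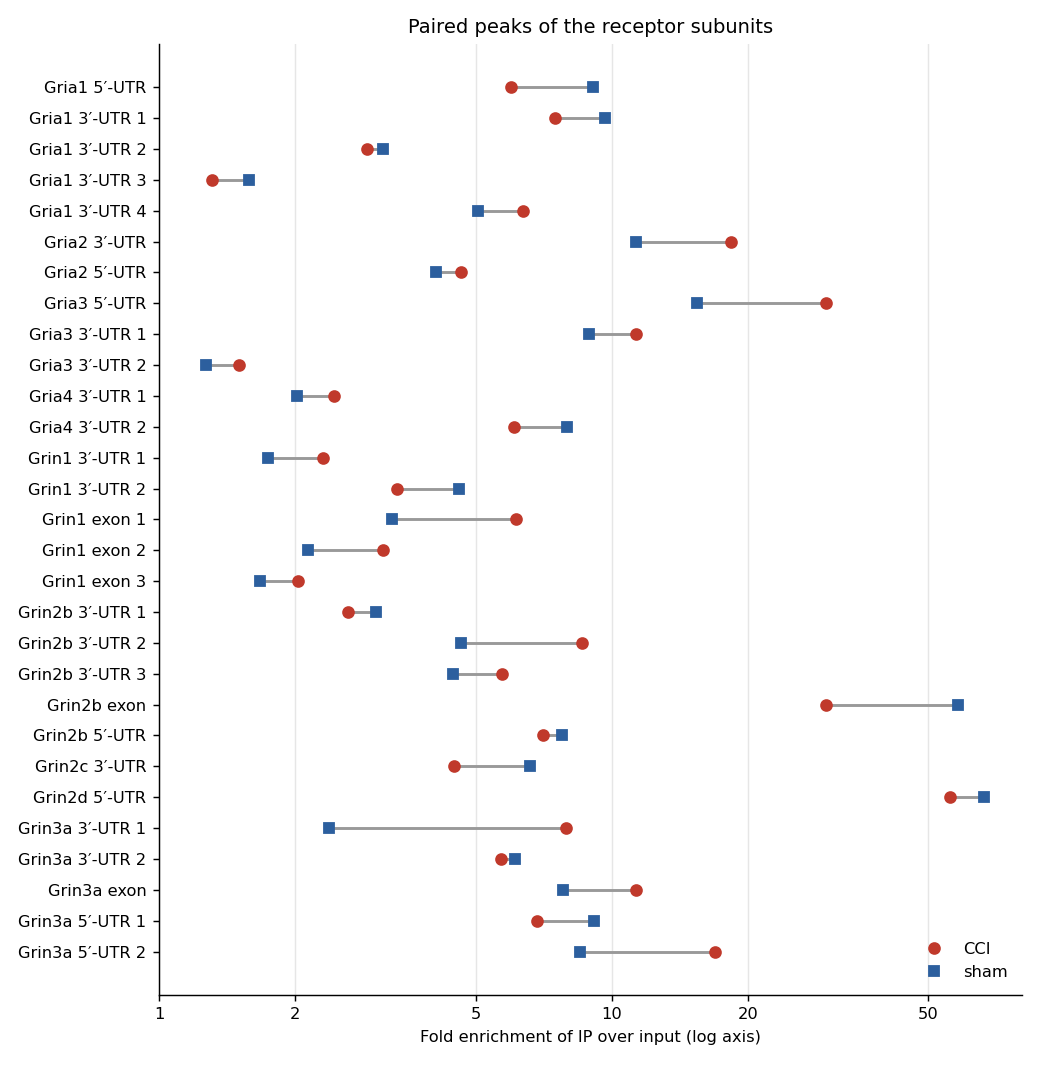
Fold enrichment of IP over input (log axis) of the 29 paired peaks of the subunit genes, with a red circle for CCI, a blue square for sham and a grey line between them. Pairs of 1 gene and region are numbered by genome coordinate. The widest gap is that of the first 3′-UTR pair of Grin3a (7.91 and 2.37), and the highest values belong to the Grin2d 5′-UTR (55.9 and 66.2) and the last exon of Grin2b (29.7 and 58.1).

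**Figure D3:**
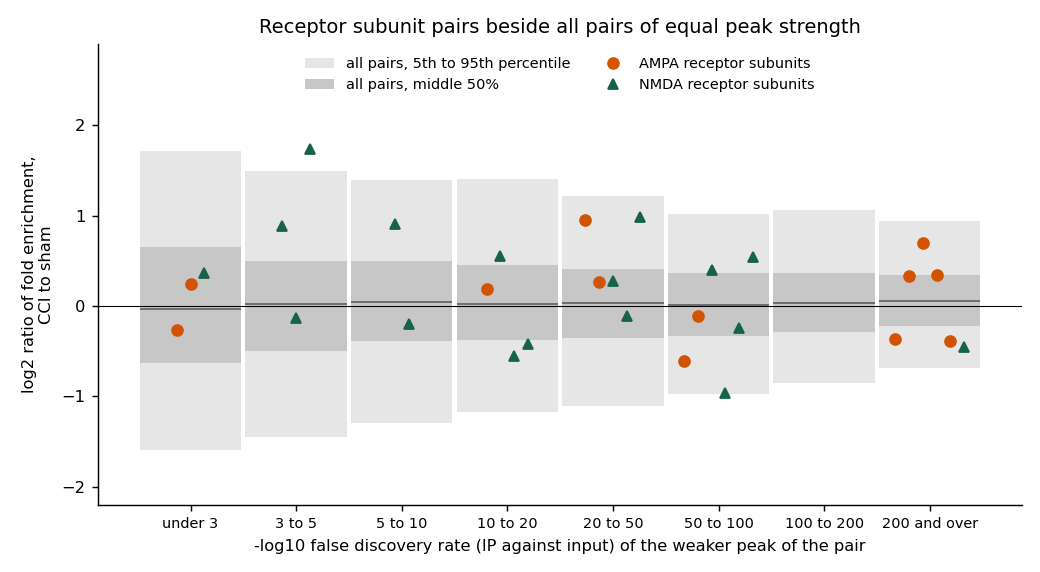
Log2 of the fold enrichment in CCI over that in sham for the 29 subunit pairs, grouped by the false discovery rate of the weaker peak, over grey bands with the middle 50% and the 5th to 95th percentiles of all 27380 pairs in the same group. The bands narrow as peaks get stronger, and the 1 subunit pair above the wide band is that of the Grin3a 3′-UTR at 1.74.

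Gria1 encodes the subunit whose phosphorylation and insertion are best known from synaptic potentiation. Its 5′-UTR peak (chr11:57011477-57012032) did not differ in its borders. It had a fold enrichment of 5.98 in CCI and 9.09 in sham, a log2 ratio of -0.60. This was the lowest ratio among the AMPA subunits. The 3′-UTR of Gria1 held 4 peaks in CCI and 6 in sham, all within the last 3 kb of the gene. In the pair that lay farthest from the end the fold enrichment was 7.48 in CCI and 9.65 in sham (log2 ratio -0.37). In the next pairs it was 2.88 and 3.12 (-0.12) and then 1.31 and 1.58 (-0.27). In the pair nearest the end it was 6.37 and 5.06 (0.33), the only Gria1 pair higher in CCI. The extra sham peaks differed in how they lay against the CCI peaks. The one at chr11:57327971-57328120, with a fold enrichment of 1.68, lay wholly within a CCI peak. The one at chr11:57330094-57330244, at the very end of the gene, had 7.75 and a log10 false discovery rate of -7.13. It shared 31 of its 151 bases with a CCI peak, and the other 120 bases lay under none, so it counts as shared only through the limit of 1 base.

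Gria2 encodes the subunit that renders AMPA receptors nearly impermeable to calcium once its transcript is edited at the Q/R site. It had a 3′-UTR peak (chr3:80687890-80688460 in CCI) and the 5′-UTR peak whose sequence is given above (chr3:80802655-80802835). The 3′-UTR peak had a fold enrichment of 18.3 in CCI and 11.3 in sham, a log2 ratio of 0.70, and its log10 false discovery rate was listed as minus infinity in both lists. The 5′-UTR peak had 4.65 and 4.09 (0.19). Both peaks of Gria2 were higher in CCI, and 96.0% of the bases under its CCI peaks and 100% of those under its sham peaks were shared.

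Gria3, on the X chromosome, had 3 paired peaks and all were higher in CCI. Its 5′-UTR peak (chrX:41401214-41401499 in CCI) had a fold enrichment of 29.7 in CCI and 15.4 in sham, and its log2 ratio of 0.95 was the highest among the AMPA subunits. The main 3′-UTR peak (chrX:41676474-41676833) had equal borders in CCI and sham and values of 11.3 and 8.88 (0.35). A weak peak nearer to the end had 1.50 and 1.27 (0.24). Further weak peaks stood in 1 list alone, with fold enrichments of 2.50 in exon 13 of 15 and 1.50 in the 3′-UTR in CCI, and 1.98 at exon 15 of 17 in sham.

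Gria4, which encodes a subunit of AMPA receptors with fast kinetics, had peaks annotated to its 3′-UTR alone. The peak next to the gene end (chr9:4418045-4418314 in CCI) had a fold enrichment of 2.43 in CCI and 2.02 in sham (log2 ratio 0.27). The larger peak upstream, which spans a splice junction (chr9:4419718-4424349), had 6.08 and 7.96 (-0.39) with the same borders in both lists. The sham list held 1 further peak of 61 bases with a fold enrichment of 1.50. The main AMPA subunit peaks therefore did not move in 1 direction, with the 3′-UTR higher in CCI for Gria2 and Gria3 and pairs of both signs in the 3′-UTRs of Gria1 and Gria4.

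Grin1 encodes the subunit that every NMDA receptor contains. Its 3′-end pairs were of opposite sign. The peak at chr2:25291570-25291750, with equal borders in both lists, had a fold enrichment of 2.30 in CCI and 1.74 in sham (log2 ratio 0.40). The longer peak upstream of it (chr2:25291899-25294451 in CCI) had 3.36 and 4.60 (-0.45). An antisense gene, Grin1os, covers this end of Grin1, and the use of strand in peak calling is not stated, so reads of the 2 genes cannot be told apart here. Peaks named Grin1os lay over the last bases of Grin1 in both lists. They had fold enrichments of 2.37 in CCI and 3.33 in sham for one peak (-0.49), and of 2.97 and 3.93 for the other (-0.40). Toward the 5′ end of Grin1, 3 paired exonic peaks were all higher in CCI. The first, annotated to the last exon of a transcript of 3 exons, had 6.13 and 3.27 (0.91). The second, in exon 2 of a transcript of 2 exons, had 3.13 and 2.13 (0.56), and the third, at exon 1 of 20, had 2.03 and 1.67 (0.28). In the same part of the gene, CCI alone held a peak of 3.81 (chr2:25312132-25312341) and sham alone a peak of 11.6 over 61 bases, whose log10 false discovery rate of -1.84 was the weakest among all subunit peaks.

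Grin2a, which encodes the Grin2 subunit that predominates in many mature synapses, had no peak in common between the lists. CCI had 3′-UTR peaks of 1.79 and 1.71. Sham had peaks of 4.48 and 3.92, which cover nearly the same bases of exon 3 of 14 and stand as separate rows. The strongest log10 false discovery rate of the 4 was -5.14, so this contrast rests on weak peaks, as did those of the other genes with peaks in 1 list alone.

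Grin2b encodes the subunit with slow decay that prevails early in development and is a known target in pain research. Its strongest peak lay in the last exon, exon 14 of 14 (chr6:135733399-135733729 in CCI), with a fold enrichment of 29.7 in CCI and 58.1 in sham. The log2 ratio of -0.97 was the lowest among all subunit pairs. Downstream in the same exon, CCI had peaks of 17.5 and 9.12 named Grin2b, where sham had 1 peak of 12.1 over 1290 bases that carries the name of Gm14329, a gene of the opposite strand. The pair formed by the CCI peak of 9.12 and the Gm14329 peak had a log2 ratio of -0.41 and is not among the 29. A further sham peak over the same stretch, of 26.7, is listed as Gm22892, also of the opposite strand. Gm14329 also overlaps the strongest Grin2b peak, and its reads cannot be told apart from those of Grin2b. In the 3′-UTR of Grin2b the pairs had 8.60 and 4.65 (0.89), 5.73 and 4.45 (0.36), and 2.62 and 3.02 (-0.20), in CCI and sham. These pairs were weak, with log10 false discovery rates of -3.33 and -3.11, -4.69 and -2.84, and -6.56 and -7.66. The pair with the ratio of 0.89 set a CCI peak of 60 bases against a sham peak of 180 bases. A CCI peak of 21.9 (chr6:135730463-135730703) had no sham partner, and it had a log10 false discovery rate of -5.60. A sham peak of 2.18 had no CCI partner. The 5′-UTR peak had 7.04 and 7.75 (-0.14). The bases shared between the lists came to 38.4% of those under the CCI peaks of Grin2b and 69.7% of those under its sham peaks.

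Grin2c, best known from cerebellar granule cells and astrocytes, had 1 shared peak in its 3′-UTR (chr11:115249529-115249978 in CCI). Its fold enrichment was 4.48 in CCI and 6.60 in sham, a log2 ratio of -0.56. Peaks of 2.71 in exon 13 of 13 and 5.81 in the 5′-UTR stood in the sham list alone.

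Grin2d had the highest fold enrichment among the subunit genes, in the 5′-UTR peak that spans the sequence given above (chr7:45866587-45869857 in CCI). Its fold enrichment was 55.9 in CCI and 66.2 in sham, a log2 ratio of -0.24, which placed it within the top 3.26% of the CCI list and the top 2.42% of the sham list. The sham peak was 1350 exonic bases long and also covered the stretch that CCI held as a separate peak of 15.1, so the single sham peak of Grin2d stood against several peaks in CCI. A weak CCI peak of 1.54 at exon 4 of 12 had no partner. At the 3′ end of Grin2d the tables used another name. A peak of 2190 bases that runs to the end of Grin2d (chr7:45831883-45834072) is listed as Gm45441, a gene of the opposite strand, with a fold enrichment of 124 in CCI and 121 in sham. It was within the top 1.05% of the CCI list and the top 1.03% of the sham list, and its log2 ratio was 0.04. A CCI peak of 14.2 named Grin2d likewise overlapped a sham peak of 14.7 named Gm45441 (-0.05). The count of Grin2d peaks by name thus misses the largest peak over its own last bases.

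**Figure D4:**
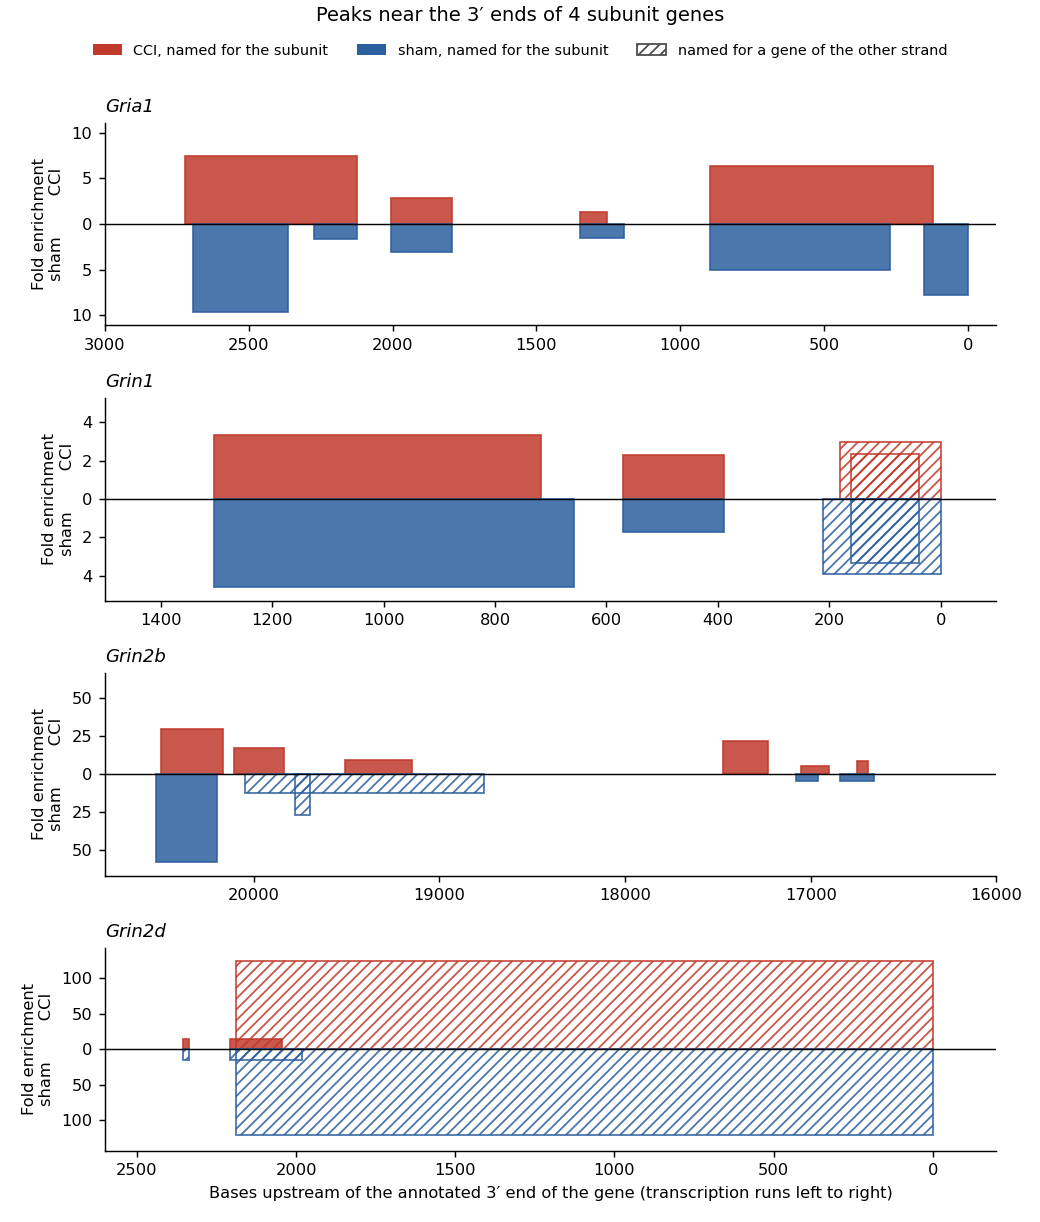
Peaks near the 3′ ends of Gria1, Grin1, Grin2b and Grin2d, with CCI above and sham below each line. The horizontal axis is the distance in bases from the annotated gene end, the height of a box is the fold enrichment, and hatched boxes are peaks listed under a gene of the opposite strand. Gria1 has 6 boxes in sham and 4 in CCI, and the Grin2d end is covered in both lists by the box of Gm45441 (124 and 121).

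Grin3a encodes a subunit that lowers the calcium permeability and magnesium block of NMDA receptors. It held the only subunit pair past a log2 ratio of 1, at the end of its 3′-UTR (chr4:49661701-49662000 in CCI), with a fold enrichment of 7.91 in CCI and 2.37 in sham (1.74). The peak covered 300 bases in CCI and 121 in sham, and its log10 false discovery rate was -12.7 in CCI and -4.59 in sham. Its ratio was at the 97.5th percentile of all pairs. The pair drops out when an overlap of 50% of both peaks, false discovery rates below 1e-10 or equal borders are required, which leaves 0 pairs past 1 in each case. The next pair upstream, annotated to the 3′-UTR in CCI and to exon 9 of 9 in sham, had 5.68 and 6.12 (-0.11). The long peak of 1199 bases at exon 2 of 9 (chr4:49770559-49792718), with equal borders in CCI and sham, had 11.3 and 7.79 (0.54). In the 5′-UTR, neighbouring pairs had 6.82 and 9.15 (-0.42) and 16.9 and 8.52 (0.99). Grin3a therefore held pairs of both signs within the same annotated region. A weak CCI peak of 2.04 in exon 2 had no partner.

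The annotated region of the peaks listed under the subunit names differed between the receptor types. Of the AMPA subunit peaks, 10 of 14 in CCI (71.4%, 95% Wilson interval 45.4 to 88.3%) and 12 of 16 in sham (75.0%, 50.5 to 89.8%) were annotated to the 3′-UTR, and 1 in each list to an exon. Of the NMDA subunit peaks, 11 of 27 in CCI (40.7%, 24.5 to 59.3%) and 8 of 23 in sham (34.8%, 18.8 to 55.1%) were in the 3′-UTR, and 11 and 10 in exons. Over all peaks, 49.8% and 48.9% were in the 3′-UTR and 35.5% and 35.1% in exons. The intervals of the 2 receptor types overlap and the peaks of a gene are not independent, so the difference is a description. It also depends on naming and on single genes. Grin2d has 0 3′-UTR peaks by name in both lists, while the peak over its end is listed as Gm45441. Peaks named Grin1os and Gm14329 likewise lie over Grin1 and Grin2b. Among the AMPA subunits, Gria1 alone gave 4 of the 3′-UTR peaks in CCI and 6 in sham. Within each type, the shares in CCI and sham were close to each other. In the log2 ratios, the 12 AMPA pairs had a median of 0.21 (from -0.60 to 0.95, 7 higher in CCI) and the 17 NMDA pairs a median of 0.28 (from -0.97 to 1.74, 9 higher in CCI), which differ by far less than the spread within either type.

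**Figure D5:**
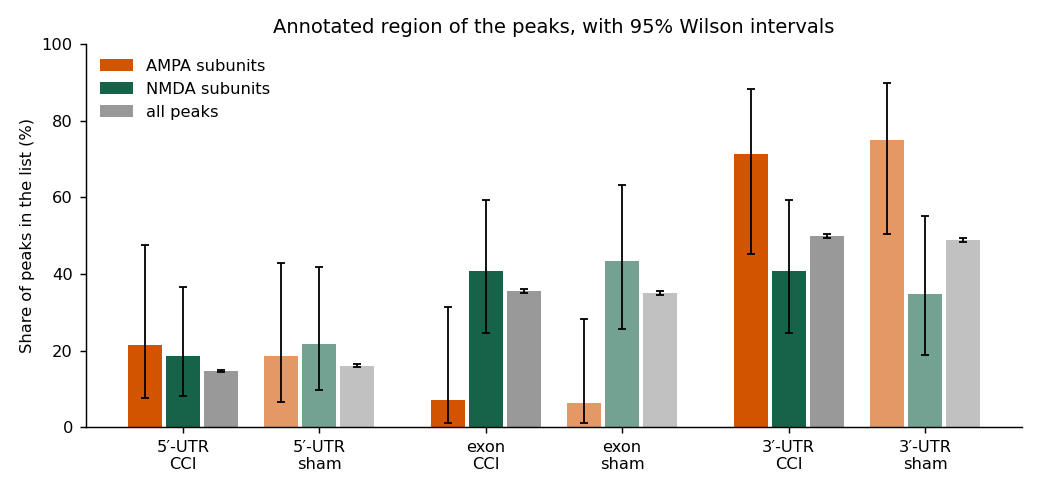
Share of peaks annotated to the 5′-UTR, to exons and to the 3′-UTR for AMPA subunits (orange), NMDA subunits (green) and all peaks (grey), with full colour for CCI, pale colour for sham and bars for 95% Wilson intervals of counting error. The AMPA subunits have 71.4% and 75.0% of their peaks in the 3′-UTR and the NMDA subunits 40.7% and 34.8%, with wide intervals.

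By the median fold enrichment over its peaks, Grin2d was the highest subunit gene in CCI (14.7) and in sham (66.2, from its single peak). The lowest was Grin2a in CCI (1.75) and Gria4 in sham (2.02). By the highest peak of each gene, Grin2d was again first in both lists and Grin2a last in both, at 1.79 and 4.48. The places between depended on which summary was used, and for 6 of the 10 genes the list with the higher value changed with it. Gria3, for instance, was ninth of 10 in CCI by the median and second by its highest peak. With 1 library per group, no spread is known by which neighbours in these orders could be told apart.

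The authors' differential table lists peaks that they called as different between CCI and sham. It was used here only for the positions of its rows, and its fold changes and p-values were left aside. It holds rows for 5 of the 10 subunit genes, beside 25.3% of all gene names with peaks. Gria1, Gria2 and Gria3 have 1 row each, Gria4 has 2 and Grin1 has 3, so that each AMPA subunit gene has a row and no Grin2 or Grin3a peak does. The subunit genes also carried more peaks per gene than most, as given above, and the part of this in the share of genes with a row was not tested. Rows were also more frequent among strong peaks. Of all 17441 pairs with both false discovery rates below 1e-10, 3726 had a row, beside 602 of the other 9939. The median log10 false discovery rate of the shared CCI peaks was -68.15 for AMPA and -16.1 for NMDA subunits. The part of peak strength in the split between receptor types was not tested. By peak, 8 of the 41 CCI peaks (19.5%, 10.2 to 34.0%) overlapped a row beside 15.6% of all CCI peaks, and 7 of the 39 sham peaks (17.9%, 8.98 to 32.7%) beside 14.3% of all sham peaks. These shares are close to the background. Of the rows, 7 covered a pair described above. The pairs higher in CCI were the 3′-UTR peaks of Gria2 (0.70), Gria3 (0.35) and Gria4 (0.27) and the downstream 3′-UTR peak of Grin1 (0.40). The pairs lower in CCI were the 5′-UTR peak of Gria1 (-0.60), the upstream 3′-UTR peak of Gria4 (-0.39) and the upstream 3′-UTR peak of Grin1 (-0.45). The last row covered the exonic Grin1 peak of 3.81 found in CCI alone. The Grin3a pair with the largest ratio and the Grin2b last-exon pair have no row.

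Other glutamate receptor genes and genes of proteins that act with such receptors were looked at for comparison. They were 31 genes of kainate and delta receptors, Grin3b, AMPA receptor auxiliary subunits, and proteins that anchor or recycle the receptors. Of these, 30 had peaks in both lists and Grik4 had none. Their 86 pairs had a median log2 ratio of 0.15, with 54 higher in CCI and 32 lower. That is 62.8% higher, beside 51.8% of all pairs. A log2 ratio of 1 was reached by 13 pairs (15.1%, beside 8.59% of all pairs) and -1 by 5 pairs (5.81%, beside 7.25%). The 12 genes of auxiliary subunits, small membrane proteins that govern the trafficking and gating of AMPA receptors, gave 32 pairs with a median of 0.42, of which 23 were higher in CCI. The kainate and delta receptor genes gave 21 pairs with a median of 0.28, of which 16 were higher. The anchoring and recycling partners gave 32 pairs with a median of -0.05, of which 15 were higher, and the single pair of Grin3b stood at -0.66.

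The pairs with the largest ratios of this list were as follows. Cacng8, which encodes a transmembrane AMPA receptor regulatory protein, had a 5′-UTR peak with a fold enrichment of 200 in CCI and 41.8 in sham (log2 ratio 2.26). Cacng3, of the same family, had one of 95.7 and 23.7 (2.01), and Cacng7, also of that family, a 3′-UTR peak of 49.5 and 19.2 (1.37). Cnih2, a cornichon that slows AMPA receptor deactivation, had a 3′-UTR peak of 76.6 and 28.7 (1.42). Shisa7 went the other way, with a 5′-UTR peak of 12.2 and 44.2 (-1.86), while the median of its 6 pairs was 0.61. Nsf, the ATPase that binds the tail of the Gria2 protein, had a 5′-UTR peak of 79.7 and 11.2 (2.83), while the median of its 3 pairs was -0.01. Gripap1, a partner in the endosomal recycling of AMPA receptors, had a 3′-UTR peak of 229 and 61.7 (1.89), while the median of its 3 pairs was 0.06. Among kainate receptor genes, the Grik5 5′-UTR peak had 58.8 and 21.8 (1.43) and a Grik3 3′-UTR peak had 25.6 and 9.63 (1.41). These genes are named because their ratios are among the largest of the list, so the values are a description and carry no test.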

How the data were processed

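Mouse spinal cord of the CCI and sham groups had been profiled by MeRIP-seq in 4 libraries, an IP and an input for each group. The authors' methods name Cutadapt, bowtie, MACS2 and ChIPseeker, while the submitters' processing notes name fastp, HISAT2, HOMER, ChIPseeker and the build GRCm38. The column names are those of exomePeak output, so the caller behind the tables is uncertain. Libraries were prepared so as to keep strand, and whether peak calling used it is not stated. Fold enrichment is the ratio of IP to input as the authors deposited it. The deposited log10 false discovery rate of IP against input was handled as a score, since some values are listed as minus infinity. The differential table also holds the authors' fold changes and p-values of CCI against sham, which were not used. All coordinates of peaks are those of the deposited tables.

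Peaks were matched on exonic blocks by at least 1 shared base. A pair consisted of peaks that were each the other's best partner by intersection over union, and pairs under the same subunit name were used. The 3 tables hold no value per library, the depth is unknown, and no test was made. Shares carry 95% Wilson intervals, which cover counting error only. The matching was tested on simulated peaks that were unspliced and lay well apart. Spliced peaks, peaks split in 1 list and peaks of overlapping genes were not simulated. All 10 subunit genes were named in the text, and of the 31 other genes those with a peak in 1 list alone or a pair past an absolute log2 ratio of 1, at most 10 by the size of the ratio, of which 1 is not reported here. Grin3b, Grik4, the Hox genes and the genes whose peaks lie over a subunit gene were named after their values were seen. The subunits and the gene lists were chosen with earlier results of these data known. Promoter windows of RefSeq (GRCm38.p6) matched 5 of the 10 genes. Alternatives changed the overlap, the minimum fold enrichment or false discovery rate, the centring and the fold limit. Those with both false discovery rates below 1e-10, with partners of the same gene name, or with the same borders were added after seeing the data. The steps were run in Python 3.11.15 with pandas 2.3.3, numpy 2.4.6 and scipy 1.17.1, and plots were drawn with matplotlib 3.10.9.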

Additional observations from a re-analysis of the deposited data

How the results depend on the processing

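No paired analysis was possible because CCI and sham are represented by a single IP library each, and for the same reason no replicate could be left out. The median log2 ratio of the subunit pairs kept its sign under each alternative run. It stayed between 0.19 and 0.24. When an overlap of 50% of both peaks was required, 65.9% of the subunits' CCI peaks had a partner, in place of 80.5%. Of their sham peaks 66.7% had one, in place of 79.5%. The shares over all peaks at that overlap are not given here, so this drop cannot be set against that of the whole lists. No subunit pair (0) reached a log2 ratio of 1 at that overlap. The count of pairs at or above 1 was also 0 with both false discovery rates below 1e-10 and 0 with the same borders in both lists, an alternative that leaves 9 of the 29 pairs. The single pair of the Grin3a 3′-UTR is therefore lost under each of these alternatives, the last 2 of which were chosen after seeing the data. At a limit of 0.5, 8 of the 29 pairs were higher in CCI and 3 were lower, in place of 1 and 0. Of all 27380 pairs, 6048 were higher and 5322 lower at that limit. Counting each gene and region once lowered the share of peaks in the 3′-UTR from 51.2% to 45.0% in CCI and from 51.3% to 38.1% in sham. The shares over all peaks under that count are not given here. Of 20 gene levels, 11 moved when the highest peak replaced the median, and the list with the higher level changed for 6 of 10 genes. For Gria3 it changed from sham (5.43, with 2.50 in CCI) to CCI (29.7, with 15.4 in sham). For Grin2b it changed from CCI (8.86, with 4.55 in sham) to sham (58.1, with 29.7 in CCI). Gria1, Gria4 and Grin1 changed as Grin2b did, and Grin3a as Gria3 did.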

Other observations

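In the 3′-UTRs of the subunit genes the sign of the log2 ratio often changed along the transcript, which was noticed after the values were seen. Of the 6 genes with more than 1 pair in the 3′-UTR, 4 had a pair nearest the transcript end that was higher in CCI and a farthest pair that was lower. These were Gria1 (0.33 and -0.37), Gria4 (0.27 and -0.39), Grin1 (0.40 and -0.45) and Grin3a (1.74 and -0.11). The farthest Grin3a pair is annotated to the 3′-UTR in CCI but to an exon in sham, and its nearest pair is lost at an overlap of 50%. Without Grin3a, 3 genes show the pattern, and it is limited to pairs under the subunit name. Gria1 had a sham peak of 7.75 nearer the end that is in no pair. Peaks named Grin1os, over the last bases of Grin1, were lower in CCI (-0.49 and -0.40), and their reads cannot be told apart from those of Grin1. Gria3 had both higher in CCI (0.24 and 0.35), and Grin2b had the reverse order (-0.20 and 0.36). Over all 3277 gene names with more than 1 pair in the 3′-UTR, 27.3% had the nearest pair higher and the farthest pair lower, and in 54.9% the nearest pair had the larger ratio. The median difference between the nearest and the farthest pair was 0.68 over the 6 subunit genes and 0.09 over all, with a middle 50% from -0.48 to 0.66. With 6 genes, 1 library per group and peak borders that differ between the lists, these values are given as a description and were not tested.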
